A study of Mus musculus with 8 samples.

Results

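The 6 genes described here, Lin28b, Igf2bp1, Igf2bp2, Igf2bp3, Hmga1 and Hmga2, were taken by symbol from the 22059 genes listed for each sample, and each of them was found once in all 8 samples. The samples were whole livers of FVB mice, an inbred strain (FVB/NJ wild type in the study's methods), with 2 samples at each of 4 stages, namely embryonic day 18 (E18), postnatal day 14 (P14), postnatal day 28 (P28) and adult at 3 months. The labels name no deleted gene and no treatment in any of these groups, and they do not give the sex of the animals. Poly(A)-selected RNA was sequenced, and the reads on genes numbered 68154675 to 106055723 per library. The study treated the samples of a stage as biological duplicates, so the p-values below measure the spread between 2 libraries per stage. Levels are given as RPKM, the authors' read number per kilobase of transcript and 1000000 mapped reads, or as CPM (reads per 1000000 after TMM scaling, the scaling of edgeR that takes most genes as not changing). A gene was called decreased or increased when it differed more than 3-fold, with a false discovery rate under 0.1, in edgeR's quasi-likelihood test across all 17081 genes that passed the filter on low counts. All 6 genes passed that filter, and Lin28b, Igf2bp1 and Hmga2 passed through their reads at E18.

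LIN28B is an RNA-binding protein of embryonic cells that binds the precursors of the let-7 microRNAs and blocks their maturation. Mature let-7 in turn represses mRNAs whose 3′ untranslated region (3′UTR) pairs with its seed, and the mRNA of LIN28B itself is among its known targets. IGF2BP1, IGF2BP2 and IGF2BP3 are related RNA-binding proteins, first described as binders of the Igf2 mRNA, that stabilize mRNAs and guide their translation. HMGA1 and HMGA2 are small proteins that bind AT-rich DNA and shape chromatin in growing fetal tissue. Most of them are known as oncofetal genes, active in the embryo, low in most adult tissues and active again in some tumours, liver tumours included.

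Because the family is known for its tie to let-7, the letters that let-7 reads were searched in the 3′UTR of each gene. Most let-7 microRNAs that RefSeq lists, let-7j excepted, share a seed, bases 2 to 8 of the mature microRNA, shown in capitals for 3 mature sequences that RefSeq (GRCm38.p6) gives for let-7a-5p (chromosome 13, 48538239 to 48538260, minus strand), let-7g-5p (chromosome 9, 106178846 to 106178867, plus strand) and miR-98-5p (chromosome X, 151913229 to 151913250, plus strand).
let-7a-5p: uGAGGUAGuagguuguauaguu
let-7g-5p: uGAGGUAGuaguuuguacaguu
miR-98-5p: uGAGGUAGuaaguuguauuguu

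The letters that pair with this seed are CTACCTC, and an A after them makes the 8-letter match CTACCTCA, which contains the 7-letter one. They were searched on the transcript strand only, in the longest annotated 3′UTR of each gene (GENCODE M21, GRCm38). The longest match of each gene is given here, with all 3 of the 8-letter matches of Igf2bp1, and the matching letters are in capitals.
Lin28b, 36 bases after the stop codon: gggcgggaagtCTACCTCAtgc
Igf2bp1, 1715 bases after the stop codon: tgcgaagtaaaCTACCTCAagg
Igf2bp1, 4136 bases after the stop codon: agtgctattaaCTACCTCAgcc
Igf2bp1, 4730 bases after the stop codon: aaatggatgaaCTACCTCAgtc
Igf2bp2, 1313 bases after the stop codon: acaaataaaagCTACCTCAggt
Igf2bp3, 548 bases after the stop codon: tttttactcaaCTACCTCAggt
Hmga1, 801 bases after the stop codon: ctgttcacaaaCTACCTCtgg
Hmga2, 58 bases after the stop codon: acattcaatttCTACCTCAgca

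Each of the 6 genes held at least 1 match, and the number split them in 2 sets. Lin28b, Igf2bp1 and Hmga2 held 4 matches each, whereas Igf2bp2, Igf2bp3 and Hmga1 held 1 each. Of 20603 genes with a 3′UTR of at least 50 bases, 9.12% held 1 match or more and 12 genes held 4 or more. Length matters for such counts, since the 3′UTRs of the 6 genes ran from 1183 bases in Hmga1 to 6337 bases in Igf2bp1, against a median of 982 bases over all genes. Among genes whose 3′UTR was within 10% of the same length, 2 of 601 held as many matches as Lin28b, 0 of 242 as many as Igf2bp1 and 1 of 1101 as many as Hmga2. For the genes with a single match, the share with as many was 11.3% at the length of Igf2bp2, 14.2% at that of Igf2bp3 and 8.29% at that of Hmga1. A match describes these letters only, and mature let-7, which has no poly(A) tail, was not measured in these libraries.

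**Figure D1:**
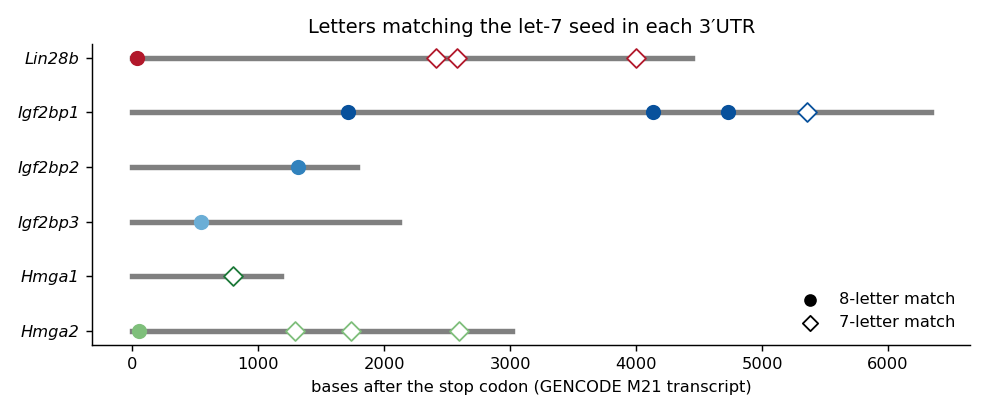
Position of the letters that match the let-7 seed along the 3′UTR of each gene, in bases after the stop codon, with filled circles for 8-letter and open diamonds for 7-letter matches and grey bars for the length of the 3′UTR. Lin28b, Igf2bp1 and Hmga2 carry 4 matches each and the other genes 1 each.

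Lin28b (chromosome 10, 45376620 to 45486395, minus strand, in GRCm38) was read in E18 liver and was nearly absent from every later library. Its level was 6.09 and 6.69 RPKM in the E18 samples, from 3081 and 3058 reads, and 0.00328 and 0.00334 RPKM at P14, from 2 reads in each sample. No read was counted in any P28 or adult sample, although 3 reads there would have been 0.00543 to 0.00752 RPKM. The E18 samples thus lay far above all 6 postnatal samples, and the P14 samples lay under the 3 reads taken as the smallest level that this depth can show. From E18 to P14 the log2 fold change of Lin28b was −9.97 ± 0.26 (SE, adjusted p = 8.04e-08, edgeR), and the ratio of the levels was 1060, with a counting interval (95%, exact binomial) of 415 to 3900. That SE is derived from the test statistic and is too small for 2 reads per sample. DESeq2, another test on counts, gave −10.1 ± 0.75. From E18 to adult Lin28b was at least 488-fold lower, taking 3 reads per library as the adult level. Between P14, P28 and adult no fold is given, since all of these libraries were at or under 3 reads. In whole liver, fewer cells of a type and less RNA per cell cannot be told apart, which holds for all values below.

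Igf2bp1 (chromosome 11, 95957163 to 96005940, minus strand, in GRCm38) showed the same near loss by P14, with a few reads left in each postnatal library. The E18 samples had a level of 7.12 and 5.87 RPKM, the P14 samples 0.0148 and 0.0118, the P28 samples 0.00466 and 0.0133, and the adult samples 0.00646 and 0.00438. These postnatal values rest on 14 and 11 reads, on 4 and 10 reads and on 4 and 3 reads. The E18 samples stood apart from all later ones, while the P28 samples overlapped those of P14 and of adult. Igf2bp1 fell between E18 and P14, with a log2 fold change of −8.05 ± 0.26 (SE, adjusted p = 1.83e-08, edgeR) and a ratio of 270 (counting interval 183 to 417). Neither later interval passed the test, with log2 fold changes of −0.57 ± 0.45 from P14 to P28 (edgeR, adjusted p = 0.331) and −0.71 ± 0.60 from P28 to adult (edgeR, adjusted p = 0.489). At this read number, later differences of Igf2bp1 were not detectable, and the counting interval of the ratio of P14 to P28 ran from 0.748 to 3.11.

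Igf2bp2 (chromosome 16, 22059009 to 22163299, minus strand, in GRCm38) was lower at each stage than at the one before. The E18 samples had a level of 16.1 and 11.7 RPKM, the P14 samples 0.997 and 1.50, the P28 samples 0.441 and 0.397, and the adult samples 0.215 and 0.169. The samples of each stage lay below those of the stage before it, without overlap. The decrease from E18 to P14 was −2.62 ± 0.22 in log2 (6.13-fold, adjusted p = 6.15e-06, edgeR). From P14 to P28 the log2 fold change was −1.54 ± 0.23 (2.90-fold, adjusted p = 0.000859, edgeR), and from P28 to adult it was −1.15 ± 0.27 (2.22-fold, adjusted p = 0.0248, edgeR). Both later differences passed the false discovery rate and stayed under 3-fold, but that from P28 to adult no longer passed it without P28 replicate 1 (adjusted p = 0.115, edgeR) or without adult replicate 2 (adjusted p = 0.150, edgeR). From P14 to P28 the call turned on single libraries, since the log2 fold change was −1.81 without P14 replicate 1 and −1.63 without P28 replicate 1, both past 3-fold, and −1.21 without P14 replicate 2. From E18 to adult the fall of Igf2bp2 came to −5.30 ± 0.27 in log2 (39.4-fold, adjusted p = 1.3e-07, edgeR).

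Igf2bp3 (chromosome 6, 49085223 to 49214957, minus strand, in GRCm38) had the highest level of the 6 genes in every sample up to P28, and dropped afterwards. The E18 samples had a level of 19.8 and 19 RPKM, the P14 samples 6.19 and 7.75, the P28 samples 3.99 and 3.21, and the adult samples 0.224 and 0.242. These are 8065 and 6981 reads at E18, 1774 and 1250 reads still at P28, and 72 and 86 reads in adult. No stages overlapped, but the steps were of unequal size. From E18 to P14 Igf2bp3 was 1.54-fold lower (log2 −0.62 ± 0.14, SE, adjusted p = 0.00314, edgeR), and from P14 to P28 1.89-fold lower (log2 −0.92 ± 0.14, adjusted p = 0.000939, edgeR), both short of 3-fold. From P28 to adult it fell 15.6-fold, with a log2 fold change of −3.97 ± 0.18 (adjusted p = 1.47e-05, edgeR). The size of the first step depended on the scaling, since it was −1.49 ± 0.14 in log2 with library size alone, still under 3-fold. From E18 to adult the log2 fold change of Igf2bp3 was −5.50 ± 0.18 (45.4-fold, adjusted p = 1.13e-08, edgeR).

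The makeup of the Igf2bp family within the liver changed with these unequal steps. The RPKM of the 3 genes summed to 43.0 and 36.6 in the E18 samples, 7.20 and 9.26 in the P14 samples, 4.43 and 3.62 in the P28 samples, and 0.446 and 0.416 in the adult samples. At E18 all 3 contributed, with Igf2bp1 at 16.3% ± 0.355 (SD, n = 2) of the sum, Igf2bp2 at 34.7% ± 3.73 and Igf2bp3 at 49.0% ± 4.09. Igf2bp3 alone made up 84.8% ± 1.60 of the sum at P14 and 89.3% ± 0.922 at P28. In adult liver Igf2bp2 and Igf2bp3 shared a very low sum, at 44.5% ± 5.32 and 54.2% ± 5.60, and Igf2bp1 had 1.25% ± 0.280 of it, after 0.167% ± 0.0552 at P14 and 0.237% ± 0.186 at P28. These shares are ratios within a sample and do not depend on the scaling between samples.

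**Figure D2:**
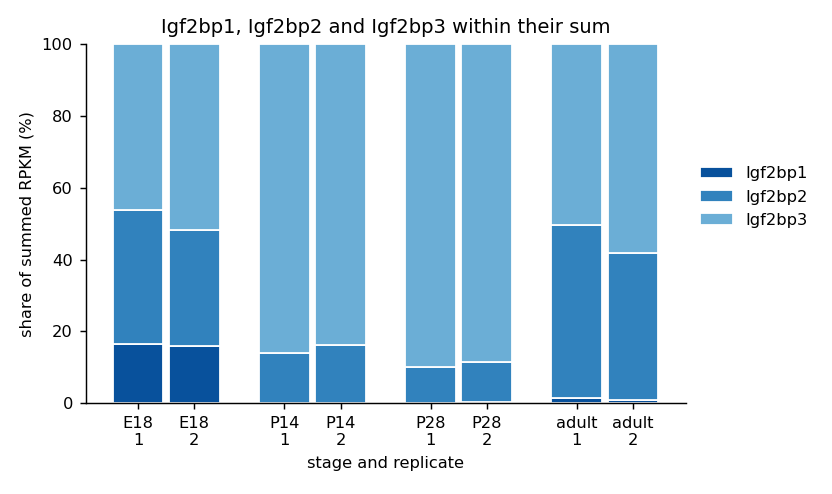
Share of Igf2bp1, Igf2bp2 and Igf2bp3 in their summed RPKM, in percent, with a stacked bar for each of the 8 samples. Igf2bp3 takes 83.7 to 89.9% in the P14 and P28 samples and 46.1 to 58.2% in the E18 and adult samples.

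Hmga1 (chromosome 17, 27556497 to 27563674, plus strand, in GRCm38) fell between E18 and P14 and was read at a low level in every later sample. The E18 samples had a level of 6.06 and 5.46 RPKM, the P14 samples 0.564 and 0.445, the P28 samples 0.487 and 0.425, and the adult samples 0.410 and 0.388. The E18 samples lay above all others, the P14 and P28 samples overlapped, and every adult sample still had at least 62 reads. The decrease from E18 to P14 was −2.66 ± 0.17 in log2 (6.30-fold, adjusted p = 1.11e-06, edgeR). The later log2 fold changes were −0.11 ± 0.18 from P14 to P28 (edgeR, adjusted p = 0.665) and −0.21 ± 0.19 from P28 to adult (edgeR, adjusted p = 0.515), and the counting intervals of the level ratios were 0.881 to 1.31 and 0.924 to 1.47. How reads that fit several places in the genome were counted is not given in the sources used here, so the values of Hmga1 are uncertain.

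Hmga2 (chromosome 10, 120361275 to 120476469, minus strand, in GRCm38) had the lowest level of the 6 genes at E18. The E18 samples had a level of 2.00 and 1.37 RPKM, the P14 samples 0.0659 and 0.0410, the P28 samples 0.0117 and 0.0267, and the adult samples 0.0130 and 0.00293. The postnatal levels rest on 31 and 19 reads, on 5 and 10 reads and on 4 and 1 reads. The E18, P14 and later samples did not overlap, while the P28 and adult samples did. The fall from E18 to P14 was −4.11 ± 0.36 in log2 (17.2-fold, adjusted p = 7.56e-06, edgeR). From P14 to P28 the log2 fold change was −1.46 ± 0.52 (adjusted p = 0.0466, edgeR) and the ratio of levels 2.79 (counting interval 1.54 to 5.35), under 3-fold. That call also turned on single libraries, with −1.76 without P14 replicate 2 and −2.12 without P28 replicate 2, both past 3-fold. In the other direction, it was −1.09 without P14 replicate 1 and −0.98 without P28 replicate 1. From P28 to adult the difference did not pass the test (log2 −1.28 ± 0.81, edgeR, adjusted p = 0.342). The fall from E18 to adult was −6.84 ± 0.50 in log2 (adjusted p = 1.53e-06, edgeR) with a ratio of 120 (counting interval 51.5 to 371), and without adult replicate 1 it was −8.18. A pseudogene, Hmga2-ps1, has a row of its own, with 530 and 663 reads at E18 and 47 and 62 in adult, in which the order of the E18 samples was the opposite of that of Hmga2.

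**Figure D3:**
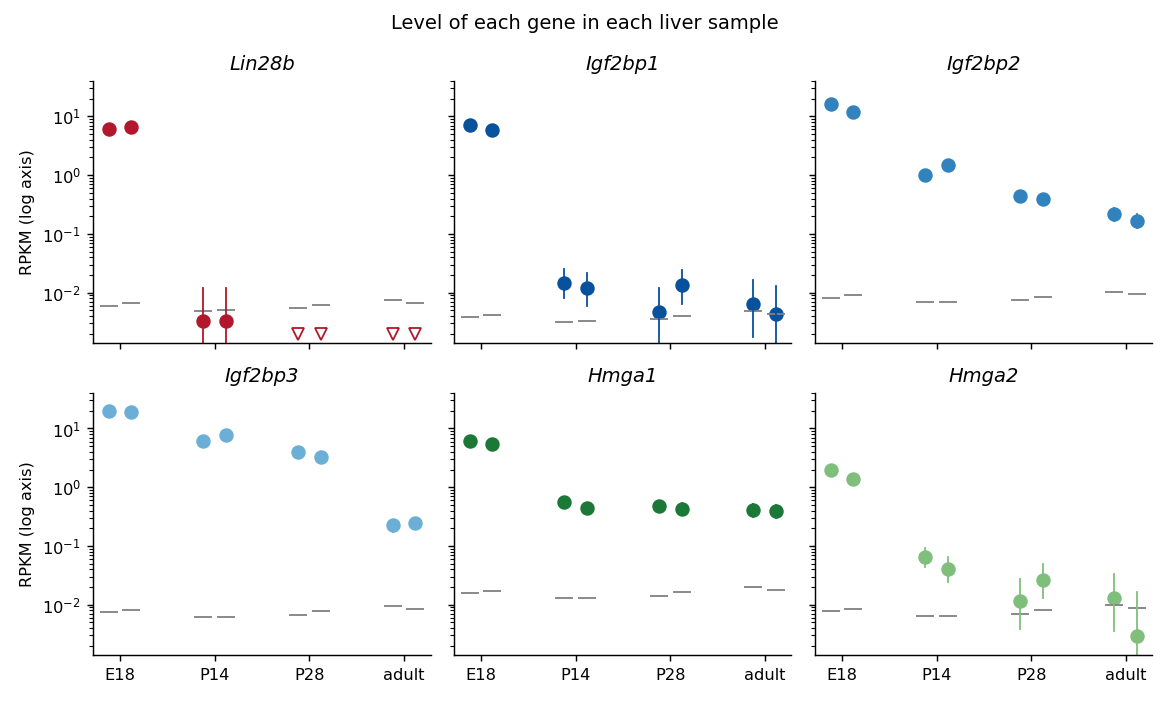
RPKM of each gene in each of the 8 samples, on a log axis, with 95% Poisson intervals as vertical lines, the RPKM of 3 reads as grey dashes, and open triangles for samples with 0 reads, drawn at the foot of the axis. Lin28b is under the grey dashes from P14 on, and Igf2bp1 and Hmga2 are near or under them in adult, whereas Igf2bp3 stays between 3.21 and 7.75 RPKM at P14 and P28.

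Counted over the intervals, most calls fell in the first. From E18 to P14, 5 of the 6 genes were called decreased, against 15.4% of all genes tested, and Igf2bp3 was the gene that was not. From P14 to P28, 1 of the 6 was called, against 5.98% of all genes, and this was Lin28b, going from 2 reads to 0 in each sample, for which no fold is given. From P28 to adult, 1 of the 6, Igf2bp3, was called, against 2.24% of all genes. From E18 to adult all 6 were called decreased and 0 increased, against 23.8% of all genes called decreased and 16.8% called increased. The E18 samples lay above both adult samples for each of the 6 genes. Such separation was not counted over all genes, so it does not set the 6 apart from other genes. With 2 samples per group the smallest p of an exact permutation test is 0.333, so all p-values here come from the fit across genes. With library size alone, all genes had a median log2 fold change of −0.90 from E18 to P14 and −0.95 from E18 to adult, against −0.03 and −0.11 with TMM, so falls from E18 are given relative to most genes. The same choice moved the decreased share of all calls from 52.8% to 80.1% from E18 to P14, and from 58.7% to 78.8% from E18 to adult.

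**Figure D4:**
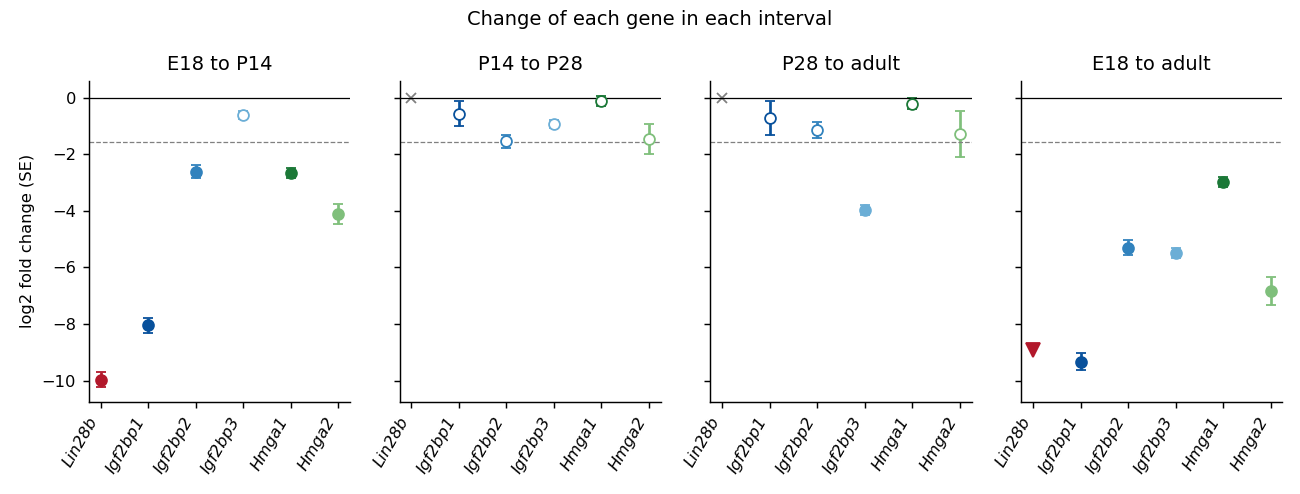
Log2 fold change of each gene in each interval, with SE, filled for genes called decreased and open for the others, and a dashed line at a 3-fold decrease. Crosses mark the intervals in which Lin28b had too few reads for a fold, the triangle marks its change of at least 488-fold from E18 to adult, and Igf2bp3 is the gene whose drop is past the line between P28 and adult.

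The timing was tested directly, by comparing the log2 change from E18 to P14 with that from P14 to adult in the same fit. Of the 6 genes, 3 differed between the spans at a false discovery rate below 0.1. Of all genes tested, 26.0% passed that rate in 1 direction and 34.8% in the other, so this count does not set the 6 apart. Hmga1 fell more before P14, with a difference of −2.33 ± 0.32 (SE, adjusted p = 0.000295, edgeR), and 26.0% of all genes tested had, at that rate, a larger fall or a smaller rise in the early span. Igf2bp3 fell more after P14, with a difference of 4.26 ± 0.25 (adjusted p = 1.96e-06, edgeR), and 34.8% of all genes had, at that rate, a larger fall or a smaller rise in the late span. The third was Igf2bp1, with −6.78 ± 0.92 (adjusted p = 0.00028, edgeR), but its 14 and 11 reads at P14 left too little room above 3 reads for a late fall as large as the early one, so this value says nothing of its timing. For Igf2bp2 the difference was within the error (0.07 ± 0.39, edgeR, adjusted p = 0.899). For Hmga2, also with few reads after E18, it was −1.37 ± 1.05 (edgeR, adjusted p = 0.300), which passed with library size alone (−2.27 ± 1.10, edgeR, adjusted p = 0.0988) and was −0.01 without adult replicate 1. For Lin28b the late change could not be estimated from 2 reads per sample.

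Per length, the genes also changed order. At E18 the mean RPKM ran from Igf2bp3 (19.4) through Igf2bp2 (13.9), Igf2bp1 (6.49), Lin28b (6.39) and Hmga1 (5.76) to Hmga2 (1.68), and Igf2bp1 overlapped both Lin28b and Hmga1. At P14 the order was Igf2bp3 (6.97), Igf2bp2 (1.25), Hmga1 (0.504), Hmga2 (0.0534), Igf2bp1 (0.0133) and Lin28b (0.00331), with no overlap between neighbours. At P28 Hmga1 (0.456) and Igf2bp2 (0.419) overlapped below Igf2bp3 (3.60), and so did Hmga2 (0.0192) and Igf2bp1 (0.00898). In adult liver Hmga1 had the highest mean RPKM of the 6 (0.399), above Igf2bp3 (0.233) and Igf2bp2 (0.192). Hmga2 (0.00795) and Igf2bp1 (0.00542) overlapped in adult, and Lin28b was at 0.

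Other genes of the let-7 pathway, 20 in number, were mostly below the threshold. From E18 to adult, 6 of the 20 were called decreased and 1 increased, against 23.8% and 16.8% of all genes, with a list median of −0.78 in log2 fold change, against −0.11 over all genes. Lin28a, the paralogue of Lin28b, fell by 6.11 ± 0.58 on the log2 scale (adjusted p = 8.7e-06, edgeR), from 248 and 209 reads in the E18 samples to 14 and 18 in the P14, 1 and 0 in the P28 and 0 and 3 in the adult samples. Trim71, a let-7 target that encodes a stem-cell ubiquitin ligase, fell by 5.76 ± 0.36 (adjusted p = 5.2e-07, edgeR), from 509 and 314 reads in the E18 samples to 4 and 3 in the adult samples, with 2 reads in each P14 sample and 6 and 5 in the P28 samples. Both thus had few or no reads after birth, as Lin28b had. Eif2c2, the Argonaute 2 that carries microRNAs, fell by 3.55 ± 0.20 (edgeR, adjusted p = 2.59e-07). Msi1, an RNA-binding protein that works with LIN28, fell by 3.50 ± 0.39 (edgeR, adjusted p = 2.88e-05), and Hnrnpa1, which binds a let-7 precursor, fell by 2.01 ± 0.11 (edgeR, adjusted p = 2.38e-07). Eif2c4, another Argonaute, was the 1 gene that rose, by 1.69 ± 0.15 (edgeR, adjusted p = 4.97e-06), which with library size alone was 0.84 ± 0.15 and short of 3-fold. The core processing enzyme Dicer1 was at 70.6 ± 2.64 CPM (SD, n = 2) at E18 and 62.6 ± 3.79 CPM in adult, a log2 difference of −0.17 ± 0.08 (edgeR, adjusted p = 0.0858) that was short of 3-fold. With library size alone 10 of the 20 were called decreased, as were 6159 of all 17081 genes.

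Among 20 known let-7 targets other than the 6 genes, 8 were called decreased from E18 to adult and 0 increased, against 23.8% and 16.8% of all genes, with a median log2 fold change of −1.07. The largest falls were those of the growth regulator Plag1 (−4.85 ± 0.32, SE), the E2F-binding factor Arid3a (−4.55 ± 0.17) and Plagl2 (−3.75 ± 0.11), followed by the IGF1 receptor Igf1r (−3.48 ± 0.19) and the cell cycle phosphatase Cdc25a (−3.31 ± 0.15). Nr6a1, another known target and with 8 matches in its 3′UTR the gene with the most, was at 1.02 ± 0.19, short of 3-fold. With library size alone 14 of the 20 were called decreased, as were 6159 of all 17081 genes.

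Of the 12 genes with 4 or more matches, all were tested and 6 were called decreased from E18 to adult, of which 3 were Lin28b, Igf2bp1 and Hmga2. Of the other 9, named here after their values had been seen, Trim71 (−5.76 ± 0.36), Hic2 (−3.03 ± 0.15) and Mcf2l (−1.70 ± 0.26) were decreased, whereas Nudt12 (3.02 ± 0.14) and Trim6 (1.73 ± 0.24) were increased, the latter at 0.88 ± 0.24 and short of 3-fold with library size alone. Leaving out the 6 genes, 23 tested genes held 3 or more matches, of which 7 (30.4%) were decreased, against 23.7% of the 12683 genes without a match. The median log2 fold change was −0.33 with 3 or more matches and −0.09 without, and the median 3′UTR was 4470 and 1010 bases, so match number and length cannot be told apart.

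Among 14 partners of the IGF2BP proteins, made of known target RNAs and of the enzymes and readers of the RNA mark m6A that IGF2BP proteins bind, 3 were decreased from E18 to adult and 0 increased, against 23.8% and 16.8% of all genes, with a median log2 fold change of −0.38. Igf2, the fetal growth factor whose mRNA named the family, had 413147 and 371641 reads in the E18 samples, 53383 and 226564 in the P14 samples, 56 and 43 in the P28 samples, and 46 and 64 in the adult samples. H19, the non-coding RNA beside Igf2, had 1352809 and 1188936 reads in the E18 samples, 802811 and 1689954 in the P14 samples, 336 and 172 in the P28 samples, and 45 and 28 in the adult samples. Both were thus high in E18 and P14 samples and collapsed by P28, with log2 fold changes from P14 to P28 of −11.22 ± 0.80 for Igf2 (adjusted p = 1.44e-05, edgeR) and −12.03 ± 0.56 for H19 (adjusted p = 1.62e-06, edgeR). In that interval Igf2bp3 was 1.89-fold lower, and it kept 34.4% of its E18 CPM at P28, when Igf2 was at 0.0216%. Cd44, an adhesion receptor, fell by 3.04 ± 0.17 from E18 to adult (edgeR, adjusted p = 2.46e-07). Of the m6A genes, the writers Mettl3 (−0.35 ± 0.09) and Mettl14 (−0.82 ± 0.11) and the reader Ythdf3 (0.99 ± 0.10) were all short of 3-fold. P14 replicate 2, which had more reads of Igf2 and H19, also had the higher CPM of Igf2bp2 (7.27 against 4.78) and Igf2bp3 (41.9 against 33.1) and the lower CPM of Igf2bp1 (0.123 against 0.153), Hmga1 (1.13 against 1.42) and Hmga2 (0.213 against 0.338), and the summed CPM of 8 mesenchymal markers was 1610 in it against 1100 in replicate 1. The part of these cells in the values was not tested.

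Of 9 further HMG genes, 3 were decreased from E18 to adult and 0 increased, against the same shares of all genes, with a median log2 fold change of −0.72. These were Hmgb2 (−4.54 ± 0.23) and Hmgb3 (−3.51 ± 0.17), which bend DNA, and the nucleosome binder Hmgn2 (−2.33 ± 0.20). Hmgb1 (−0.65 ± 0.19) and Hmgn1 (−0.72 ± 0.14) were short of 3-fold, and Hmgn5 was at 0.65 ± 0.14, which turned to −0.20 ± 0.12 with library size alone. Several HMG genes have near-identical processed copies in the genome, and how shared reads were counted is not given in the sources used here, so their values are uncertain.

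The genes whose course over the 8 samples was most like that of each member were found by the root mean square (RMS) difference of centred log2 CPM. For Lin28b they were Btnl10 (RMS 0.40), Tspo2 (0.42) and Epb4.9 (0.42), the last of which went from 363 CPM at E18 to 1.09 at P14 and 0.291 in adult. For Igf2bp1 they were Abcg4 (0.39), Tmcc2 (0.47) and Col6a4 (0.47), and for Hmga2 Smarca1 (0.36), Orc1 (0.41) and AI662270 (0.42). For Igf2bp2 they were Pla2g4c (0.21), Slc7a6 (0.21) and Tnni1 (0.22). Igf2bp3 had no gene as near, with Marco at 0.51, Greb1l at 0.52 and Cep55 at 0.55. Marco, a macrophage receptor, went from 76.4 CPM at E18 to 66.4, 15.7 and 2.42 CPM at the later stages. For Hmga1 they included Mir493 (0.13), which had 0.126 CPM at E18, and Cep290 (0.14). With a prior count of 0.5 in place of 2, 8 of these 18 genes were still among the nearest.

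The cells of the liver changed in the same period, and the marker lists give the size of that change. The summed CPM of 10 erythroid markers was 10400 and 13400 at E18 and between 94.4 and 460 in the later samples, and all 10 were decreased from E18 to P14. All 14 proliferation markers were decreased from E18 to P14 as well, and their sum was 11.7%, 2.73% and 0.601% of E18 in the stages that followed. Of 8 hepatoblast markers, 4 were decreased from E18 to P14, and the sum of all 8 was 37200 and 29600 CPM at E18 and between 109 and 518 later. Afp made up 31400 of the mean E18 sum of 33400 CPM, so the drop of the sum is mainly that of Afp. Cdh1 went from 94.1 CPM at E18 to 218 at P14, where the mean sum was 453 CPM. At the same stages the CPM of Igf2bp3 was 65.1%, 34.4% and 2.20% of E18, that of Igf2bp2 16.3%, 5.61% and 2.55%, that of Hmga1 15.9%, 14.7% and 12.7%, and that of Hmga2 5.77%, 2.12% and 0.877%. The 10 hepatocyte markers had reads at each stage, with a summed CPM of 42600 and 43200 at E18 and 89100 to 214000 later. Alb made up 38400 of the mean E18 sum of 42900 CPM, while Tat (0.481 CPM) and Cyp2e1 (2.05 CPM) were very low at E18. All 10 were increased from E18 to P14, with a median log2 fold change of 3.54, so the sum does not describe every marker. Blood progenitor markers (10 genes) kept 53.5% or more of their E18 sum, but 5 were decreased and 1, Hlf, increased from E18 to P14. Hlf made up 79.1 of the mean adult sum of 97.1 CPM. The sums of 6 endothelial, 6 macrophage and 8 mesenchymal markers were higher at P14 than at E18. In that interval 0, 2 and 1 of them were increased and 0 decreased, with median log2 fold changes of 0.89, −0.08 and 0.37. The 2 macrophage genes were Clec4f (21.8 to 162 CPM) and Vsig4 (1.59 to 37.7 CPM), so these sums do not describe every marker. The part of any of these cells in the course of the 6 genes was not tested.

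The E18 libraries also held reads of pancreatic acinar markers, at a summed CPM of 260 and 554 over 12 genes, against 36.0 to 124 in later samples, and 8 of the 11 tested were decreased from E18 to P14. Most of the later sum was Cela1, named here after its values had been seen, whose mean was 11.9 CPM in the E18 samples, 21.6 in the P14 samples, 117 in the P28 samples and 112 in the adult samples, so that sum does not measure the other acinar markers. Pnlip and Ptf1a had no read in either sample of each later stage. E18 replicate 1 had the lower pancreatic and erythroid sums and the higher hepatoblast sum, most of which was Afp. That replicate had the higher CPM of Igf2bp1 (40.2 against 34.0), Igf2bp2 (42.2 against 31.6) and Hmga2 (5.62 against 3.94), whereas Lin28b was higher in replicate 2 (25.0 against 22.2). The fall from E18 to adult was past both thresholds for all 6 genes when either E18 sample was left out.

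**Figure D5:**
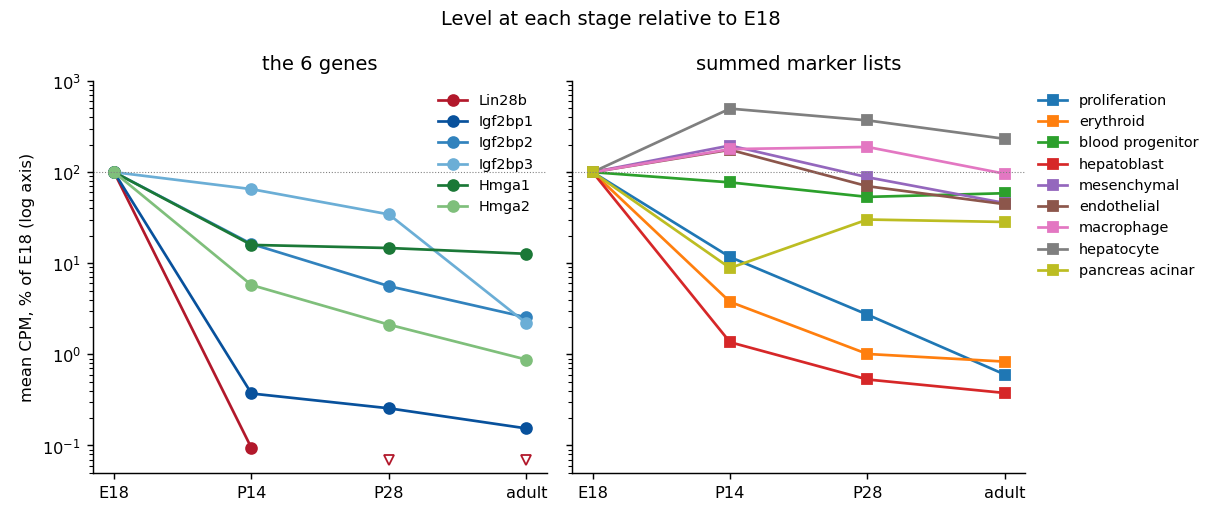
Mean CPM of the 6 genes (left) and summed CPM of 9 marker lists (right) at each stage, in percent of E18 and on a log axis, with open triangles where Lin28b had 0 reads. Igf2bp3 is the gene that keeps most of its E18 level at P14 (65.1%), while the proliferation, erythroid, hepatoblast and pancreatic lists are at 11.7% or less.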

How the data were processed

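Poly(A)-selected RNA of 8 whole livers was sequenced by the authors as paired 100 bp reads, aligned to the mouse genome (mm9, per the submitters' processing notes) and counted per gene. The aligner, the counting program and the use of strand are not given in the sources used here. The labels name Trizol for RNA isolation, whereas the study's methods name a column kit. The deposited read counts were raw, and the authors derived the RPKM from them as counts per kilobase and 1000000 mapped reads. Stages were taken from the labels, which give no batch. The files hold no coordinates, so positions are those of GENCODE M21 on GRCm38, matched by symbol.

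Counts were filtered with filterByExpr, scaled by TMM and fitted with 1 coefficient per stage over all 8 samples (edgeR version 4.0.16, glmQLFit and glmQLFTest, Benjamini-Hochberg over all genes tested). Each SE was the size of the change over the square root of F, which can understate the error where a stage has few reads. With DESeq2 the SE was 0.34 in place of 0.26 for Igf2bp1 from E18 to P14, and 0.73 in place of 0.50 for Hmga2 from E18 to adult. The fits were tested on simulated data. Depth was 68154675 to 106055723 reads on genes per sample. Counting intervals (Poisson or exact binomial, 95%) and the floor of 3 reads cover counting error only. Alternatives were no filter, median-ratio scaling, library size alone, DESeq2 (version 1.42.0), limma (version 3.58.1) on log2(RPKM + 0.1), only the 2 stages compared, a replicate block, a false discovery rate of 0.05, a 2-fold threshold, each sample left out, and a prior count of 0.5 for likeness. R (version 4.3.3), Python (version 3.11.15), pandas (version 2.3.3), numpy (version 2.4.6), scipy (version 1.17.1) and matplotlib (version 3.10.9) were used.

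Named were the 6 genes, up to 5 called genes with the largest change and genes with a role told in the text from each pathway list, and, of the 3 genes most like each member, those reported here. The 6 genes and the lists were chosen with earlier results of these data known. Hras and Ahsp were not matched by symbol. Some items are not reported here. Mature microRNA sequences came from RefSeq.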

Additional observations from a re-analysis of the deposited data

How the results depend on the processing

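The calls of the 6 genes from E18 to P14, from P28 to adult and from E18 to adult were kept under every alternative but the 2-fold threshold, which added Igf2bp2 from P28 to adult (2 called). From P14 to P28 the count of 1, Lin28b at 2 reads, became 0 with DESeq2, limma, only the 2 stages compared and a false discovery rate of 0.05, and 3 at 2-fold. With 1 sample left out the count stayed at 1, but Lin28b lost its call in the 4 fits without a P14 or a P28 sample (adjusted p = 0.107 to 0.197, edgeR), where the gene called was Igf2bp2 in 2 and Hmga2 in 2. With library size alone and with limma, 10 let-7 pathway genes, 14 let-7 targets and 5 IGF2BP partners were decreased from E18 to adult, in place of 6, 8 and 3. Of all 17081 genes, 6159 were decreased in that interval with library size alone, in place of 4061. With limma, run on RPKM without TMM, all genes had a median log2 fold change of −0.85 in that interval, against −0.11 in the main fit. The decreased share of all genes was not counted for limma. With limma, on the log2(RPKM + 0.1) scale, all 6 genes differed between the early and late spans, and 4 did with library size alone and with DESeq2, in place of 3. The share of all genes that differed between the spans was not counted for these alternatives. All genes called were 880 from P14 to P28 and 248 from P28 to adult with limma (main 1638 and 513), and 7720, 3319 and 1056 over the 3 intervals at 2-fold. The difference between spans of Igf2bp2 changed sign with median-ratio scaling (−0.01), DESeq2 (−0.01), library size alone (−0.82) and limma (−1.20), and ran from −0.58 to 0.63 when 1 sample was left out. With 1 sample left out, log2 fold changes ran from −1.44 to 0.01 for Igf2bp1 from P14 to P28, from −1.29 to 0.16 for Igf2bp1 from P28 to adult, and from −0.26 to 0.06 for Hmga1 from P14 to P28. The lone sample is then taken to vary like the other stages. The cause was not tested.

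Replicate numbers are shared between stages, but same-numbered samples did not deviate together (correlation from −0.414 to 0.161 over pairs of stages, 8726 genes), so the numbers were not taken as pairs. With the replicate number as a block the members called were 5, 1, 1 and 6, as without it. Depth limits Lin28b, Igf2bp1 and Hmga2 from P14 on, where they had 31 reads or fewer per sample.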
